A study of Saccharomyces cerevisiae with 15 samples.

Results

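The comparison described here sets yeast cells treated with CPTH2, a synthetic inhibitor of the histone acetyltransferase Gcn5, directly against cells that express scFv-58F, an intrabody (an antibody fragment made inside the cell) which binds histone H3 acetylated on lysine 9, H3K9ac. The 3 samples labelled CPTH2 and the 3 labelled 58F were taken by their titles from the 15 RNA-seq samples of the series. All came from the budding yeast strain L40, a reporter strain of mating type a labelled as his{delta}200trp1-901 with mutant alleles of leu2 and ade2, and with the integrated reporters LYS2::(lexAop)4-HIS3 and URA3::(lexAop)8-lacZ and the entry Gal4. The CPTH2 cultures carried the empty plasmid pL220 and received 400 µM of the drug for 1 h, and the scFv-58F cultures carried the intrabody gene on pL220 and received no drug. All groups grew in SD-L medium with 0.4% DMSO. DMSO cultures of the empty-plasmid strain (3 samples) and cultures with scFv-645 (3 samples), an intrabody against the unrelated protein neuroligin 2, served as references.

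The design limits what the contrast can separate. The drug acted for 1 h, whereas the intrabody was expressed stably from a plasmid through the preceding growth, so that time of exposure, the drug and the presence of an intrabody all differ between the groups and cannot be told apart. The study calls its samples biological replicates, but neither the labels nor the methods say what same-numbered samples share, and no library or culture batch is named. RNA was taken from whole cultures, in which fewer cells in a given state and less RNA per cell cannot be told apart.

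As background, Gcn5 is the catalytic subunit of the SAGA and ADA complexes and acetylates lysine residues of the histone H3 tail, a mark of active promoters. SAGA is known in yeast for its part in the transcription of stress-induced genes, and acetylated H3K9 is read by proteins with bromodomains or YEATS domains. Budding yeast answers foreign chemicals and protein damage with a few well-known regulators, among them Pdr1 and Pdr3 for drug efflux pumps, Yap1 for oxidants and electrophiles, Hsf1 for chaperones, Msn2 and Msn4 for general stress, and Rpn4 for the proteasome. Slowed growth in yeast goes with lower expression of ribosomal protein and ribosome biogenesis genes.

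The reads counted on genes were 15853368, 12735901 and 9962173 in the CPTH2 samples and 12204400, 15535836 and 11936142 in the scFv-58F samples, within a range of 9062694 to 18878167 over all 15 samples. Of the 6692 genes in the files, 6588 passed the filter on low counts (10 or more in 3 or more of all 15 samples) and were tested. Levels are given as CPM, counts scaled to a common library total after TMM normalization, so that they compare samples for a single gene and not genes with each other. Adjusted p-values come from the quasi-likelihood test of edgeR, with the adjustment of Benjamini and Hochberg taken over all tested genes. A gene is named as called where its adjusted p was under 0.05 and it also differed 1.5-fold or more, and 59.8% of the tested genes met the first of these for CPTH2 against scFv-58F. Errors of log2 fold changes are standard errors with 3 samples in each group. The mating type a genes STE2, STE6, MFA1, MFA2, BAR1 and AGA2 were detected in all 6 samples, with the pheromone receptor STE2 at 59.9 to 75.7 CPM. Of the mating type alpha markers, MF(ALPHA)1 stayed at 0.101 to 1.3 CPM, whereas SAG1 lay at 24.7 to 41.8 CPM and STE3, which overlaps YKL177W, at 9.2 to 14.5 CPM.

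CPTH2 and scFv-58F cells differed in expression across the transcriptome, with about as many genes higher as lower. Against scFv-58F, 915 genes (13.9% of those tested) were called higher in CPTH2 and 899 (13.6%) lower, together 1814 genes or 27.5%. The size of the change in called genes, on the log2 scale and without its sign, had a median of 0.84, and 43 were at least 4-fold higher while 17 were at least 4-fold lower. With scaling by library size alone the split was 1133 higher and 699 lower, so that 61.8% of the called genes were higher, in place of 50.4% with TMM. The samples of both groups did not overlap for 67% of all tested genes, with CPTH2 above in 33% and below in 34%. The mean distance between samples of the 2 groups, over log2 CPM of all tested genes, was 52.8 ± 6.72 (SD, 9 pairs), against 25.9 within CPTH2 and 16.6 within scFv-58F. The 3 samples of each group thus separated completely, and the exact two-sided permutation test gave p = 0.1, the smallest value that 10 splits of 6 samples allow.

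**Figure D1:**
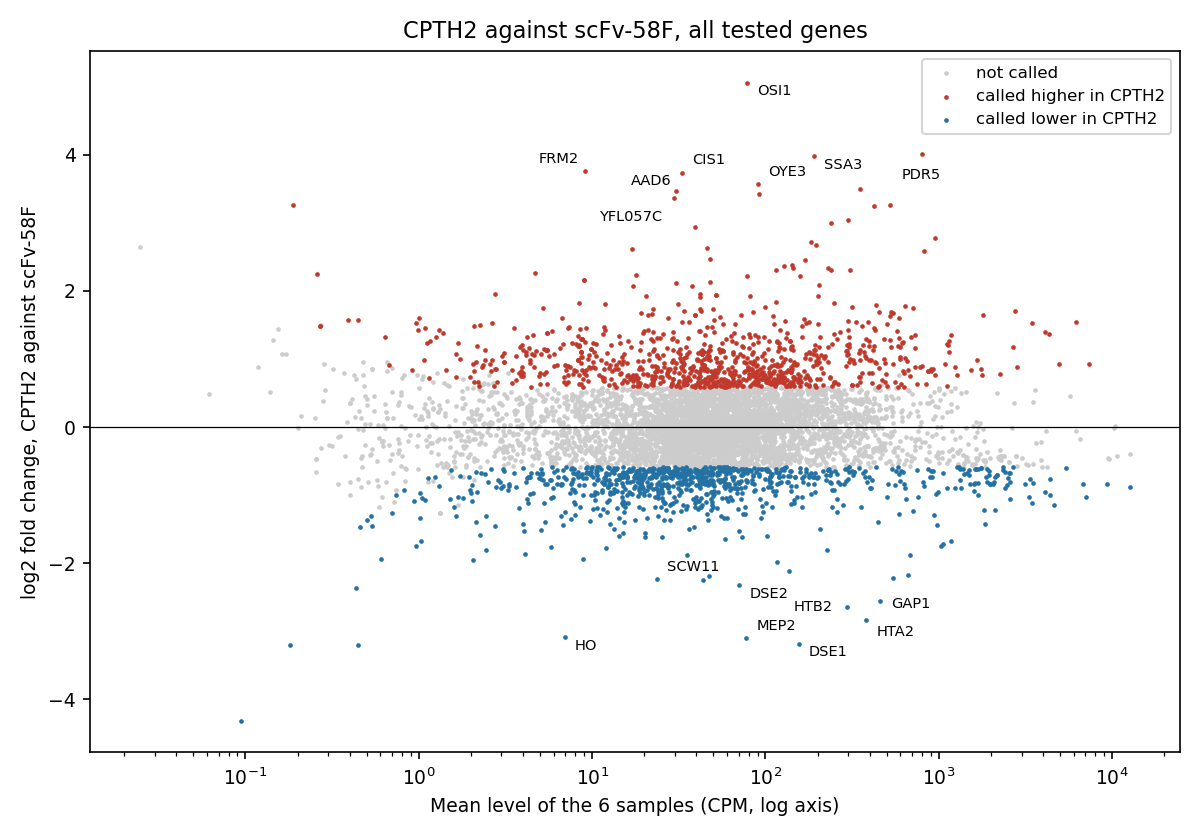
Log2 fold change of CPTH2 against scFv-58F (vertical axis) against the mean level of the 6 samples in CPM (horizontal log axis) for the 6588 tested genes, with genes called higher in red and lower in blue. OSI1 lies at the top with 5.06, and DSE1, MEP2 and HO are the labelled genes lowest on the plot, at −3.18, −3.10 and −3.09.

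The same DMSO samples served as reference for both groups. Against them 2043 genes (31% of those tested) were called in CPTH2, 928 higher (14.1%) and 1115 lower (16.9%), and 488 genes (7.41%) in scFv-58F, 130 higher (1.97%) and 358 lower (5.43%). These 3 comparisons share samples, so their values are set side by side for single genes and lists and no overlap is counted. The spread within CPTH2 was uneven. CPTH2 replicate 2 was the highest of the 3 CPTH2 samples for 671 of the 915 higher genes (73.3%) and the lowest for 589 of the 899 lower genes (65.5%), and CPTH2 replicate 1 lay at the other end for 599 and 626 of them. Without CPTH2 replicate 2 the number of called genes was 1540, and without CPTH2 replicate 1 it was 2106.

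Upstream sequences of 8 genes are shown first. They were picked as called genes whose windows hold the element named with each, and so are examples and not evidence for an element. Each is 300 bases of RefSeq assembly R64 (the build sacCer3), from 250 bases before to 50 bases after the coding start on the gene's own strand, and capitals mark the element named, as spelled or as its reverse complement. OSI1, OYE3 and AAD6, of the electrophile response, hold the Yap element TTACTAA 5, 2 and 2 times (OSI1 at chrXI:304864-305163, plus strand; OYE3 at chrXVI:227322-227621, minus strand; AAD6 at chrVI:15382-15681, minus strand).
OSI1: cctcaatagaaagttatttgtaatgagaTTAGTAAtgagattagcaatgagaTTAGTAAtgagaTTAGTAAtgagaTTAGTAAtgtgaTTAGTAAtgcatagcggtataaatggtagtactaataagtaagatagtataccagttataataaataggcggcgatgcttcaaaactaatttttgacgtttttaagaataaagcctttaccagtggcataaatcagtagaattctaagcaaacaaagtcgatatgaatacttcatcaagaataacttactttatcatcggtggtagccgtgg
OYE3: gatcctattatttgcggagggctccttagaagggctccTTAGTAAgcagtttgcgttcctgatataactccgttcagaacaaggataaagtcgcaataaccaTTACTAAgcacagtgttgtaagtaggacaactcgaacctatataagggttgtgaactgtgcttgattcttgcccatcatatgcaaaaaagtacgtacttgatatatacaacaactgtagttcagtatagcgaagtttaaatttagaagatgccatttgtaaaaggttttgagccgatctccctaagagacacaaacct
AAD6: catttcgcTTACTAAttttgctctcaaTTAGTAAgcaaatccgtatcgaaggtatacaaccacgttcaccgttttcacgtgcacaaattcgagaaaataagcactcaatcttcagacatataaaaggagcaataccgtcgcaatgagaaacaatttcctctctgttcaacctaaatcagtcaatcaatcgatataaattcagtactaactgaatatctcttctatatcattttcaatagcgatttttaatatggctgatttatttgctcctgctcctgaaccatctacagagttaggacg
CIS1, one of the 12 genes furthest higher and not on the drug resistance list, holds the pleiotropic drug response element CCGCGG once (chrXII:822543-822842, minus strand). The windows of the pumps PDR5, SNQ2 and YOR1 do not hold these letters, but bases further than 250 before the start and variant spellings were not searched. CUR1, a chaperone-network gene, holds the heat shock element GAANNTTC once (chrXVI:843012-843311, plus strand).
CIS1: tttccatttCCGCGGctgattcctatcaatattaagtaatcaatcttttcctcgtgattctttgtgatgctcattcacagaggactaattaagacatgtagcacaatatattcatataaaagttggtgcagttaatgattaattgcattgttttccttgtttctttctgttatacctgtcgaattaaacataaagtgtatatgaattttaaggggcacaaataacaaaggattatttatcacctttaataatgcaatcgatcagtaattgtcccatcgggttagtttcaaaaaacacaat
CUR1: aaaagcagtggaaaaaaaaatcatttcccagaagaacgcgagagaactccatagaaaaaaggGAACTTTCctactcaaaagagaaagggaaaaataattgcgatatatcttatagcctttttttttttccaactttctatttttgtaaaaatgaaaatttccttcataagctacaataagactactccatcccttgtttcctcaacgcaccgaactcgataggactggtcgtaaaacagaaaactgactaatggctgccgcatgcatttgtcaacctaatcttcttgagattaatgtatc
HSP12, of the general stress response, holds the stress response element AGGGG 2 times, both on the opposite strand (chrVI:107006-107305, plus strand).
HSP12: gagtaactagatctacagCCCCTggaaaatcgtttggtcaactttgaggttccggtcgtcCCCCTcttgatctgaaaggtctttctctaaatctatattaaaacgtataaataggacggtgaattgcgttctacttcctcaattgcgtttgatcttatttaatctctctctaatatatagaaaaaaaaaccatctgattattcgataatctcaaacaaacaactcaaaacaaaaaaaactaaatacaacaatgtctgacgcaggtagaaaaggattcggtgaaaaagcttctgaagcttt
For groups that were lower in CPTH2, the ribosome biogenesis gene MRT4 holds GATGAG once (chrXI:425992-426291, plus strand) and the lysine synthesis gene LYS1 holds the Gcn4 element TGACTC 2 times (chrIX:420687-420986, minus strand).
MRT4: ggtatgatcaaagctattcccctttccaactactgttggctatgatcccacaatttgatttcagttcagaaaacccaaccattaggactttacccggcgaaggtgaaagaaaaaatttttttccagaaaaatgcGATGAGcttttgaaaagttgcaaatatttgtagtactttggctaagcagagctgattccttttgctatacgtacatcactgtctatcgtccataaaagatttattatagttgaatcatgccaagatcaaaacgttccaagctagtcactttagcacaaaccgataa
LYS1: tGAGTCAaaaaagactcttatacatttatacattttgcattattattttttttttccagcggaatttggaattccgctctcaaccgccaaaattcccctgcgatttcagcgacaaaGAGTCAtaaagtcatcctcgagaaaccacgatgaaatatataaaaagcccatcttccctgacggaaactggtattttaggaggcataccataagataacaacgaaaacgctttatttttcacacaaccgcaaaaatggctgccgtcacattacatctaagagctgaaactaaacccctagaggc

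Both strands of such windows were searched for 6587 tested genes, and a match is a description of letters only. AGGGG was found in 21.5% of all windows, in 28.8% of those of genes called higher in CPTH2 and in 15.8% of those called lower. TTACTAA was in 7.27% of all windows and in 7.22% and 8.57% of the windows of genes called higher and lower. GATGAG was in 20.2% of all windows, against 14.6% for higher and 22.1% for lower genes, and AAAATTTT, another element of ribosome biogenesis genes, in 8.40%, 3.83% and 9.12%. For GAANNTTC the shares were 11.8%, 12.1% and 12.6%, for CCGCGG 1.23%, 1.64% and 0.779%, and for TGACTC 8.09%, 9.41% and 9.34%. Within the lists described next, AGGGG was in 23 of 36 windows of environmental stress response genes, TTACTAA in 12 of 32 of electrophile response genes, GAANNTTC in 11 of 31 of heat shock genes, GATGAG in 131 of 145 of ribosome biogenesis genes and TGACTC in 10 of 19 of arginine and lysine synthesis genes, whereas CCGCGG was in 1 of 30 of drug resistance genes. TGACTC read on the other strand can share letters with GATGAG. Elements further upstream than these windows, or with variant letters, were not counted, so a low share does not show that a list lacks an element.

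Many drug efflux genes were higher in CPTH2. Of 30 genes of pleiotropic drug resistance tested, 15 were called higher and 2 lower, beside 13.9% and 13.6% of all genes. The median log2 fold change was 0.78 against −0.00 over all tested genes. PDR5 (YOR153W, chrXV:619840-624375), the main multidrug ATP-binding cassette pump of the plasma membrane, was at 941, 2261 and 1338 CPM in CPTH2 and at 94.7, 97.3 and 91.6 CPM in scFv-58F. The groups did not overlap, with CPTH2 replicate 2 the highest, and the log2 fold change was 4.01 ± 0.29 (adjusted p = 1.21e-05 by edgeR). SNQ2, a related pump, was at 354, 739 and 502 against 65.5, 66.2 and 63 CPM, a log2 fold change of 3.04 ± 0.23, and YOR1, another pump of the family, at 236, 442 and 275 against 54, 47.9 and 43 CPM, a log2 fold change of 2.72 ± 0.22. In all 3 pumps scFv-58F stood close to the DMSO cells, with log2 fold changes against DMSO of 0.03 for PDR5, −0.10 for SNQ2 and 0.00 for YOR1, while CPTH2 stood at 4.03, 2.93 and 2.72.

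Not every transporter followed the pumps. TPO1, a polyamine and drug exporter, was at 51.2, 81.5 and 64.8 CPM in CPTH2 and 20.5, 15.9 and 16.2 in scFv-58F, a log2 fold change of 1.91 ± 0.17. QDR3, a drug and polyamine antiporter, went the other way, at 72.6, 58.6 and 70.7 against 146, 155 and 155 CPM and with a log2 fold change of −1.17 ± 0.09 (adjusted p = 2.23e-05 by edgeR). CIS1, whose product takes part in quality control of mitochondrial protein import, was at 49.5, 85.7 and 49.1 CPM against 5.78, 4.13 and 3.90. That log2 fold change of 3.74 ± 0.26 had a share from both sides of the DMSO cells, since CIS1 stood at 2.81 in CPTH2 and −0.94 in scFv-58F against DMSO, both called. PDR15 and GRE2 were at 3.0 and 3.50, but they overlap YDR406W-A and YOL150C, and counting without regard to strand cannot separate reads in an overlap.

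The electrophile and xenobiotic response held OSI1, the gene with the largest log2 fold change among the genes that reached 10 CPM and overlap no other gene. Of 32 genes tested, 16 were called higher, beside 13.9% of all genes, and the lowest stood at −0.37, with a median of 0.82. OSI1 (YKL071W, chrXI:305114-305884), an oxidoreductase-like gene induced by oxidants, was at 86.6, 261 and 106 CPM in CPTH2 and at 5.25, 3.64 and 4.93 CPM in scFv-58F. The groups did not overlap, CPTH2 replicate 2 was the highest of the 6 samples, and the log2 fold change was 5.06 ± 0.46 (adjusted p = 3.64e-05 by edgeR). OYE3, an old yellow enzyme that reduces unsaturated carbonyls, was at 124, 244 and 134 CPM in CPTH2 and 14.3, 14 and 14 CPM in scFv-58F, a log2 fold change of 3.57 ± 0.25. GTT2, a glutathione transferase, was at 72.9, 102 and 67.4 CPM against 14.7, 15.5 and 13.6, a log2 fold change of 2.47 ± 0.16. The NADPH-dependent reductase YNL134C stood at 2.58 ± 0.17.

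Some electrophile response genes were lower in scFv-58F than in DMSO. FRM2, a nitroreductase-like gene, was at 10.9, 28.1 and 11.7 CPM in CPTH2 and 1.23, 1.19 and 1.30 CPM in scFv-58F, with 2.27 CPM as the DMSO mean. AAD6, of the aryl-alcohol dehydrogenase family, was at 37.6, 84.7 and 46.2 CPM against 5.78, 5.04 and 4.37, with a DMSO mean of 8.15. Against DMSO, FRM2 was called at 2.84 in CPTH2 and −0.92 in scFv-58F, and AAD6 at 2.77 and −0.70. AAD genes are near-identical to each other, so that reads could have been split among them and their values are uncertain. AAD6 adjoins YFL057C (log2 fold change 3.36), and whether these neighbours changed separately was not tested.

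**Figure D2:**
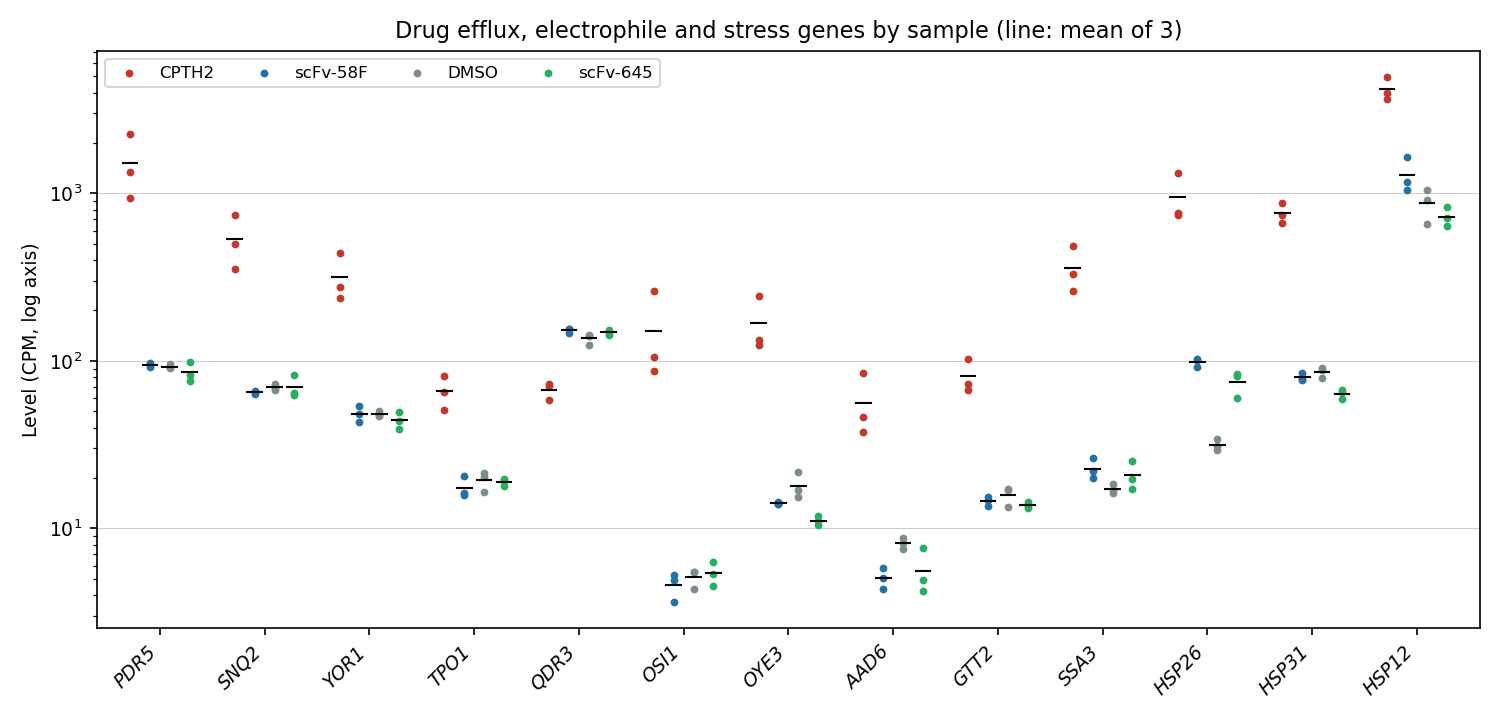
Level in CPM (log axis) of drug efflux, electrophile response and stress genes in each sample of CPTH2, scFv-58F, DMSO and scFv-645 (3 each), with a line at each mean. PDR5 lay at 941 to 2261 CPM in CPTH2 and 91.6 to 97.3 CPM in scFv-58F, and QDR3 is the gene of the plot that lay lower in CPTH2, at 58.6 to 72.6 against 146 to 155 CPM.

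Heat shock and general stress genes were higher in CPTH2 than in scFv-58F, although both groups lay above DMSO for some of them. Of 31 chaperone and heat shock genes, 19 were called higher in CPTH2 than in scFv-58F, beside 13.9% of all genes. The median was 0.98 and the lowest value −0.29. Against DMSO, 24 of the 31 were called higher and 1 lower in CPTH2, with a median of 1.60. In scFv-58F 11 were called higher than DMSO, with a median of 0.46. The shares of all genes called higher than DMSO were 14.1% and 1.97%. Against scFv-645, 0 of the 31 were called higher and 1 lower in scFv-58F (median −0.21), beside 0.668% and 2.13% of all genes. SSA3 (YBL075C, chrII:84499-86448), an inducible Hsp70 of the cytosol, was at 260, 483 and 331 CPM in CPTH2 and at 26.3, 22.1 and 19.9 CPM in scFv-58F. The groups did not overlap, CPTH2 replicate 2 was again the highest, and the log2 fold change was 3.98 ± 0.23 (adjusted p = 5.12e-06 by edgeR). HSP31, a chaperone and methylglyoxal-detoxifying enzyme, was at 740, 876 and 664 CPM against 85.1, 78.4 and 76.5 CPM, a log2 fold change of 3.25 ± 0.13.

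HSP26 (YBR072W, chrII:382030-382674), a small heat shock protein that holds misfolded proteins, was higher than DMSO in both groups. Its level lay at 747, 1329 and 765 CPM in CPTH2, at 101, 103 and 92.3 CPM in scFv-58F and at a mean of 31.6 CPM in DMSO. All scFv-58F samples thus lay below all CPTH2 samples, with a log2 fold change of 3.27 ± 0.22, while both groups were called higher than DMSO, by 4.90 in CPTH2 and 1.64 in scFv-58F. The scFv-645 cells had a mean of 74.8 CPM, and scFv-58F was not called against them (0.40). BTN2, a factor that sorts misfolded proteins, was at 189, 469 and 252 CPM in CPTH2 and 255, 261 and 209 in scFv-58F. Here the groups overlapped, and the log2 fold change of 0.33 ± 0.27 was not called (adjusted p = 0.319 by edgeR). Both groups were called above the DMSO mean of 51.6 CPM for BTN2, by 2.55 and 2.21.

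Mitochondrial chaperones were among the higher genes. SSC1, the Hsp70 of the mitochondrial matrix and import motor, was at 688, 1294 and 989 CPM in CPTH2 and 333, 285 and 254 in scFv-58F, a log2 fold change of 1.78 ± 0.21, and its J-protein partner MDJ1 stood at 1.52 ± 0.19. CUR1, which sorts misfolded proteins together with BTN2, was at 43.3, 70.0 and 43.4 against 18.2, 15.1 and 14.6 CPM, a log2 fold change of 1.71 ± 0.19. Against DMSO these 3 genes were called in CPTH2 and not in scFv-58F, where SSC1 stood at 0.11, MDJ1 at 0.11 and CUR1 at −0.16.

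Of 36 environmental stress response genes, 30 were called higher in CPTH2 than in scFv-58F, with a median of 0.97, beside 13.9% of all genes. Against DMSO, 32 were called higher in CPTH2 (median 1.27) and 4 in scFv-58F (median 0.26), beside 14.1% and 1.97% of all genes. HSP12 (YFL014W, chrVI:107256-107585), a membrane-protecting protein that is a classic Msn2 and Msn4 target, was at 3988, 4951 and 3642 CPM in CPTH2 and 1645, 1170 and 1041 CPM in scFv-58F. The lowest CPTH2 sample lay above the highest scFv-58F sample, and the log2 fold change was 1.71 ± 0.19 (adjusted p = 8.72e-05 by edgeR). GND2, a stress-induced enzyme of the pentose phosphate pathway, was at 68.8, 95.2 and 74.2 against 13.4, 12.5 and 12.6 CPM, a log2 fold change of 2.63 ± 0.13. SPI1, a cell surface protein of the weak acid response, was at 413, 606 and 464 against 162, 174 and 172 CPM (1.55 ± 0.14), and it was called higher than DMSO in both groups, by 2.26 and 0.71. The glycogen debranching enzyme GDB1 stood at 1.69, the secreted glycoprotein YGP1 at 1.67 and the aldehyde dehydrogenase ALD3 at 1.56.

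Stationary phase genes were higher too. Of 23 tested, 14 were called higher, beside 13.9% of all genes, with a median of 0.76 and a lowest value of −0.28. In CPTH2 19 were called higher than DMSO (median 1.36), beside 14.1% of all genes. In scFv-58F 6 were called higher than DMSO and 1 lower (median 0.44), beside 1.97% and 5.43% of all genes. Compared with scFv-645, scFv-58F had 7 called higher and 0 lower (median 0.53), beside 0.668% and 2.13% of all genes. SPG1, a gene needed for survival in stationary phase, was at 197, 168 and 134 CPM in CPTH2, 60.6, 49.5 and 51.7 in scFv-58F and a mean of 26.8 in DMSO. Its log2 fold change was 1.63 ± 0.14, and it was called higher than DMSO in both groups, by 2.64 in CPTH2 and 1.01 in scFv-58F. EGO4, also on the stationary phase list, was at 1365, 1210 and 901 against 821, 863 and 953 CPM, so that the groups overlapped and 0.40 ± 0.15 was not called.

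Most proteasome genes were not called between CPTH2 and scFv-58F, in contrast to their regulator. RPN4, the transcription factor that activates proteasome genes through the element GGTGGCAAA, was at 369, 573 and 391 CPM in CPTH2 and 157, 149 and 148 in scFv-58F, a log2 fold change of 1.56 ± 0.16 (adjusted p = 5.81e-05 by edgeR). Of 49 proteasome and ubiquitin genes including RPN4, 4 were called higher and the lowest stood at −0.44, with a median of 0.15, so that the share called (8.16%) was below the 13.9% of all genes. The element was in 31 of the 49 upstream windows and in 1.15% of all windows. The other called members were the ubiquitin-conjugating enzyme UBC5 (1.10), the proteasome base subunit RPN2 (0.74) and the shuttle factor RAD23 (0.61). Without CPTH2 replicate 1, 9 members were called higher, and 7 with library size alone. Relative to DMSO, 12 of the 49 were called higher in CPTH2 (median 0.41), beside 14.1% of all genes. In scFv-58F 1 was called higher than DMSO (median 0.25), beside 1.97% of all genes.

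Histone genes were lower in CPTH2 than in scFv-58F as a group. Of the 11 core, linker and variant histone genes, 10 were called lower, beside 13.6% of all genes. All had a negative log2 fold change, between −2.83 and −0.56, with a median of −1.67. HTA2 (YBL003C, chrII:235394-235792), which encodes histone H2A, was at 156, 38.6 and 85.7 CPM in CPTH2 and at 623, 651 and 731 CPM in scFv-58F. All scFv-58F samples lay above all CPTH2 samples, CPTH2 replicate 2 was the lowest of the 6, and the values gave a log2 fold change of −2.83 ± 0.40 (adjusted p = 0.000308 by edgeR). HTB2, for histone H2B, was at 122, 31.7 and 91.0 against 481, 518 and 537 CPM (−2.64 ± 0.38), and HHF1, for histone H4, at 340, 144 and 238 against 1008, 1065 and 1193 CPM (−2.17 ± 0.26). In each of these genes CPTH2 replicate 1 was the highest and replicate 2 the lowest of the CPTH2 samples.

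The histone H3 genes, which encode the protein that carries H3K9ac, belonged to this group. HHT1 was at 643, 353 and 420 CPM in CPTH2 and 1482, 1576 and 1730 in scFv-58F, a log2 fold change of −1.75 ± 0.20, and HHT2 at 1225, 817 and 946 against 2478, 2634 and 2914 CPM, a log2 fold change of −1.42 ± 0.16. The remaining core genes HTA1, HTB1 and HHF2 stood at −1.44, −1.67 and −1.72. Histone variants were lower by less. The H2A.Z gene HTZ1 was at 38.9, 33.2 and 33.6 against 64.9, 62.3 and 59.4 CPM. The linker histone gene HHO1 was at 84.0, 69.3 and 81.3 against 139, 140 and 135 CPM, and both stood at −0.81 ± 0.09. HHO1 lost its call with all 5 groups in a single model (−0.82, adjusted p = 0.223 by edgeR). CSE4, the centromeric H3, stood at −0.56 ± 0.11 and was not called, since its fold was below 1.5. The copies of each core histone are similar in sequence, and reads that match both copies were shared between them.

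Against DMSO, 9 of the 11 histone genes were called lower in CPTH2 (median −1.36), beside 16.9% of all genes, whereas in scFv-58F they lay between −0.02 and 0.37. Against scFv-645, with 17.6% of tested genes called lower in CPTH2, all 11 were called lower in CPTH2, and scFv-58F lay between −0.29 and 0.27. Summed over the 11 genes, the level was 2740 to 4664 CPM in CPTH2, 10804 to 12643 in scFv-58F, 9697 to 9982 in DMSO and 9762 to 11258 in scFv-645.

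**Figure D3:**
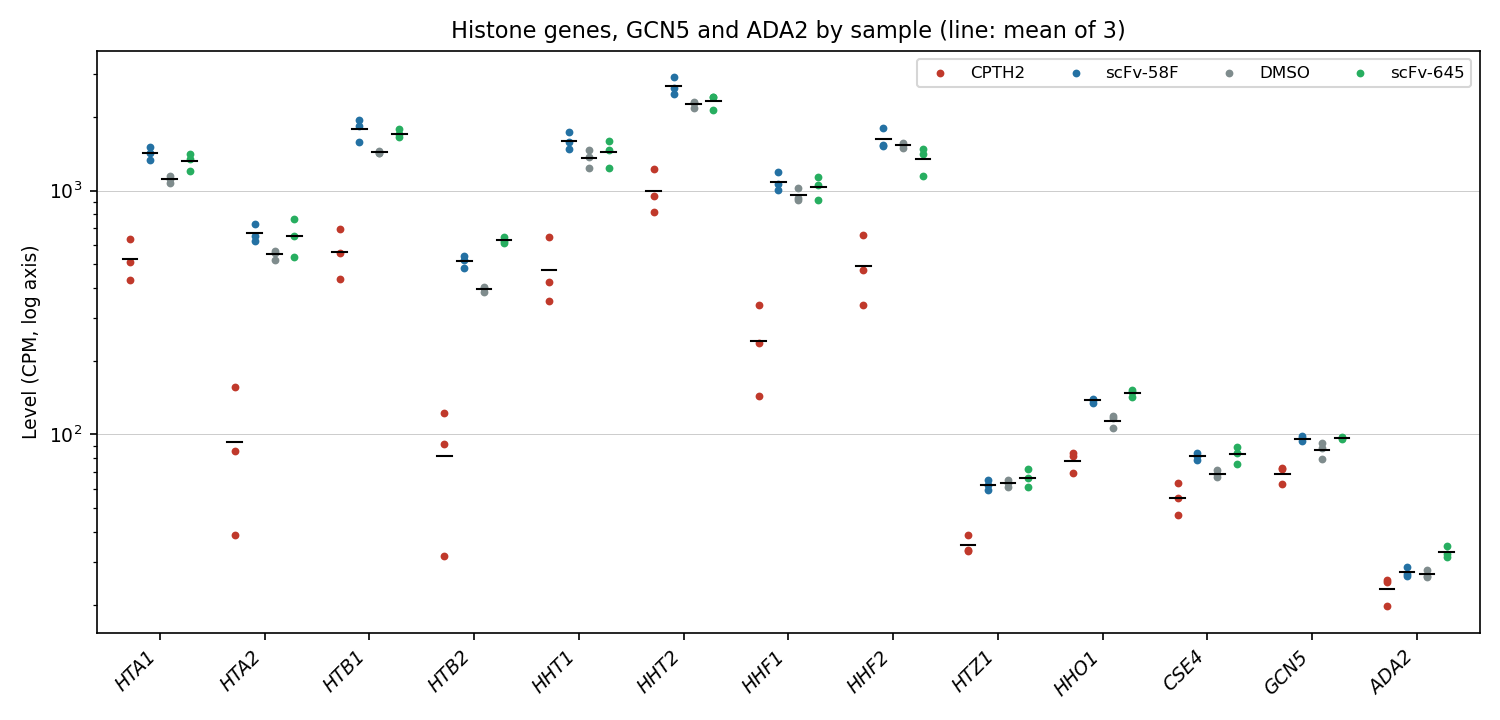
Level in CPM (log axis) of the 11 histone genes, GCN5 and ADA2 in each sample of CPTH2, scFv-58F, DMSO and scFv-645 (3 each), with a line at each mean. HTA2 lay at 38.6 to 156 CPM in CPTH2 and 623 to 731 CPM in scFv-58F, and GCN5 at 62.6 to 72.6 and 93.6 to 98.2 CPM.

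Genes of the acetylation machinery held fewer calls. GCN5 (YGR252W, chrVII:996869-998188), the target of CPTH2, was at 72.6, 62.6 and 72.2 CPM in CPTH2 and 93.6, 96.6 and 98.2 in scFv-58F. The groups did not overlap, but the log2 fold change of −0.47 ± 0.08 (adjusted p = 0.000887 by edgeR) was short of the fold needed for a call. ADA2, the adaptor that stimulates Gcn5, stood at −0.22 ± 0.11 (adjusted p = 0.116 by edgeR). Of 22 SAGA and ADA subunit genes, 2 were called higher and 1 lower, 13.6% against 27.5% of all genes. TRA1, the scaffold that binds activators, was at 122, 157 and 138 against 87.8, 90.2 and 89.7 CPM (0.65 ± 0.10), the ADA subunit AHC1 stood at 0.72, and the deubiquitinase subunit SGF11 at −0.62. TRA1 lost its call without CPTH2 replicate 2 (0.55) and with a correction for coding length (0.37). SGF11 lost its call without CPTH2 replicate 2 (−0.54), CPTH2 replicate 3 (−0.58) or scFv-58F replicate 3 (−0.58). It also lost it with the length correction (−0.46) and with library size alone (−0.55).

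Among 18 other histone acetyltransferase genes, 3 were called lower, beside 13.6% of all genes. RTT109, which acetylates newly made histone H3, was at 11.2, 7.08 and 9.89 CPM in CPTH2 and 22.9, 22.2 and 19.3 in scFv-58F, a log2 fold change of −1.18 ± 0.16. Its histone chaperone VPS75 stood at −0.88, although it overlaps YNL245C, and the acetyltransferase SAS2 at −0.60. SAS2 lost its call without CPTH2 replicate 2, CPTH2 replicate 3 or scFv-58F replicate 3 (−0.57 each), with library size alone (−0.53) and with the length correction (−0.54). Of 29 deacetylase genes, SDS3 (−0.96) and SAP30 (−0.83), both subunits of the Rpd3 complex, were called lower. Of 12 genes for proteins that read acetylated histones, the YEATS protein gene TAF14 was called lower (−0.75, and −0.57 without a call with the length correction) and the bromodomain gene BDF2, which overlaps YDL071C, higher (1.22). BDF2 was called lower than DMSO in scFv-58F (−0.65) and stood at 0.57 in CPTH2 without a call. Between scFv-58F and scFv-645, 0 of the 12 reader genes were called, beside 2.79% of all genes.

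Many genes of cell division were lower in CPTH2. Of 32 genes of the G1 and S phases, 18 were called lower and 2 higher (median −0.68), of 43 DNA replication genes 20 were called lower (median −0.57), and of 40 mitotic genes 11 lower and 1 higher (median −0.33), against 13.6% called lower over all genes. DSE1 (YER124C, chrV:407342-409063), a daughter cell gene whose product acts on cell wall separation, was at 40.7, 22.6 and 28.2 CPM in CPTH2 and 243, 281 and 316 in scFv-58F. The 2 groups did not overlap, and the log2 fold change of −3.18 ± 0.20 (adjusted p = 6.72e-06 by edgeR) came with a call on each side of the DMSO mean of 167 CPM, −2.44 in CPTH2 and 0.74 in scFv-58F.

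Other genes that daughter cells express at the end of division were lower as well. DSE2, a secreted glucanase, was at 27.3, 19.3 and 23.4 against 105, 113 and 133 CPM (−2.32 ± 0.13), EGT2, a wall protein of cell separation, at 72.0, 30.1 and 50.9 against 209, 228 and 235 CPM (−2.12 ± 0.24), and SCW11, another glucanase, at −2.23 ± 0.18. The endochitinase CTS1, which overlaps YLR286W-A, stood at −2.21. HO, the mating type switching endonuclease of late G1, was at 1.44, 0.987 and 2.02 CPM in CPTH2 and 12.3, 12.3 and 12.7 in scFv-58F, a log2 fold change of −3.09 ± 0.19. Its DMSO mean was 13.3 CPM, close to scFv-58F.

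Within DNA replication, PSF1 of the GINS complex was at 14.5, 9.95 and 11.1 CPM in CPTH2 and 27.9, 25.6 and 29.4 in scFv-58F (−1.20 ± 0.14), and RFC5 of the clamp loader at 48.9, 29.6 and 37.4 against 85.3, 79.8 and 84.7 CPM (−1.09 ± 0.15). The sliding clamp gene POL30, which overlaps YBR089W, stood at −1.61. In mitosis, the Aurora kinase gene IPL1 (−1.76 ± 0.27) and the securin gene PDS1 (−1.21 ± 0.14) were lower. ASE1, a spindle midzone protein, was the exception, at 70.3, 77.1 and 82.6 against 24, 22.5 and 22.7 CPM and a log2 fold change of 1.74 ± 0.09.

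Many cytosolic ribosomal protein genes were lower in CPTH2. Of 137 cytosolic ribosomal protein genes, 66 were called lower in CPTH2 than in scFv-58F, beside 13.6% of all genes. The median was −0.58, and 136 had a negative log2 fold change. RPS20, of the small subunit, was at 3848, 2321 and 2447 CPM in CPTH2 and 5849, 6328 and 6843 in scFv-58F, a log2 fold change of −1.14 ± 0.19 (adjusted p = 0.000768 by edgeR), and RPS12 at 2688, 2021 and 1862 against 4594, 4663 and 4955 CPM (−1.11 ± 0.15). No CPTH2 sample reached a scFv-58F sample for either gene. Against DMSO, 99 of the 137 were called lower in CPTH2 (median −0.70), beside 16.9% of all genes. In scFv-58F 3 were called lower and 1 higher (median −0.09), beside 5.43% and 1.97% of all genes. Many of these genes have a near-identical copy, with reads that match both shared between them. The number called lower was 36 with a correction for coding length, chosen after the data were seen, 48 with library size alone, 30 with all 5 groups in a single model, and 47 to 86 when each sample was left out in turn.

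Of 145 ribosome biogenesis genes, 87 were called lower than DMSO in CPTH2 (median −0.71) and 36 in scFv-58F (median −0.38), against 16.9% and 5.43% of all genes. Directly compared, 30 were called lower in CPTH2 than in scFv-58F, where 13.6% of all genes were, and 1 was called higher. The median was −0.23, and 118 of the 145 had a negative log2 fold change. Against scFv-645, 59 were called lower in scFv-58F (median −0.52), beside 2.13% of all genes. MRT4, an assembly factor of the large subunit, was at 47.4, 36 and 50 CPM in CPTH2, 115, 94 and 114 in scFv-58F and a mean of 157 in DMSO, with a log2 fold change of −1.27 ± 0.13 between the groups. MAK16, a factor for the large subunit precursor, was at 17.9, 19 and 22.4 CPM in CPTH2 and 20.1, 17.9 and 19.5 in scFv-58F, against a DMSO mean of 38.5. Here the groups overlapped at 0.05 ± 0.11, while both were called lower than DMSO, by −0.97 and −1.02. TRM112, a cofactor of methyltransferases for ribosomal and transfer RNA, was the member called higher, at 0.59 ± 0.08, a call lost without CPTH2 replicate 2 (0.55) or scFv-58F replicate 2 (0.57). With all 5 groups in a single model, 18 members were called lower.

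Of 41 RNA polymerase I and III genes, 5 were called lower (8 without CPTH2 replicate 1, 3 without CPTH2 replicate 2) and 1 higher, so that 14.6% were called against 27.5% of all genes. RPB10, a small subunit shared by the polymerases, stood at −1.17 ± 0.13. RPC82, a polymerase III subunit, was at 17, 21.8 and 26.1 CPM in CPTH2 and 13.9, 12 and 13.1 in scFv-58F (0.73 ± 0.16). Its call was lost without CPTH2 replicate 3 (0.58) and with the length correction (0.57), and against the DMSO mean of 21.9 CPM it was called lower in scFv-58F (−0.74) and stood at −0.02 in CPTH2. URA7, the CTP synthase gene, was at 25.1, 24 and 32.3 against 30.4, 28.3 and 32.4 CPM. It overlaps YBL039C-A and was not called between the groups (−0.16 ± 0.12), while both were called lower than the DMSO mean of 61.5 CPM.

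Of 33 genes for allantoin, proline and nitrogen catabolite use, which serve growth on poor nitrogen sources, 12 were called lower in CPTH2 and 4 higher, against 13.6% and 13.9% of all genes. In scFv-58F, 3 of the 33 were called above DMSO, beside 1.97% of all genes. Compared with scFv-645, 0 of them were called, beside 2.79% of all genes. MEP2 (YNL142W, chrXIV:357453-358952), the high-affinity ammonium permease, was at 16.4, 14.8 and 17.2 CPM in CPTH2 and 113, 149 and 155 in scFv-58F. The CPTH2 values lay far below those of scFv-58F, the log2 fold change was −3.10 ± 0.13 (adjusted p = 3.02e-06 by edgeR), and against the DMSO mean of 77.7 CPM both groups were called, at −2.27 and 0.84. GAP1, the general amino acid permease, was at 169, 80.9 and 148 against 723, 848 and 786 CPM (−2.56 ± 0.24), the urea amidolyase DUR12 at 36.4, 32.4 and 39.5 against 106, 112 and 112 CPM (−1.61 ± 0.09), and the allantoin pathway gene DAL3 at −1.88 ± 0.14. GDH2, the catabolic glutamate dehydrogenase, was among the members called higher, at 753, 919 and 897 against 494, 401 and 373 CPM (1.02 ± 0.13).

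Of 19 lysine and arginine synthesis genes, 8 were called lower and 1 higher, with a median of −0.54, beside 13.6% and 13.9% of all genes. LYS1, the last enzyme of lysine synthesis, was at 219, 185 and 254 CPM in CPTH2 and 467, 514 and 504 in scFv-58F (−1.17 ± 0.12), LYS9 at 695, 325 and 605 against 1283, 1353 and 1354 CPM (−1.29 ± 0.23), and LYS14, the activator of the pathway, at −1.25 ± 0.12. CPA1, the small subunit of the arginine-specific carbamoyl phosphate synthase, went the other way, at 472, 630 and 545 against 245, 247 and 233 CPM (1.19 ± 0.12). In the model of all 5 groups, 5 members of the list were called lower. Of 31 branched-chain, histidine and aromatic amino acid genes, 5 were called higher (9 without CPTH2 replicate 1) and 8 lower, with a median of 0.02.

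Iron regulon genes were higher in CPTH2. Of 35 iron homeostasis genes, 19 were called higher and 3 lower, with a median of 0.66, beside 13.9% and 13.6% of all genes. FET3 (YMR058W, chrXIII:388822-390732), the multicopper oxidase of high-affinity iron uptake, was at 188, 285 and 242 CPM in CPTH2 and 53.4, 43.8 and 41.0 in scFv-58F. The groups did not overlap, and the log2 fold change was 2.38 ± 0.16 (adjusted p = 9.5e-06 by edgeR). Against the DMSO mean of 72.8 CPM, FET3 was called at 1.71 in CPTH2 and −0.67 in scFv-58F. Between scFv-58F and scFv-645, 0 of the 35 iron genes were called, beside 2.79% of all genes, with a lowest value of −0.20. The siderophore transporter SIT1 was at 28.3, 30.6 and 29.7 against 7.01, 5.74 and 6.04 CPM (2.24 ± 0.11), the cell wall mannoproteins FIT2 and FIT3, which retain siderophores, stood at 2.13 ± 0.10 and 1.96 ± 0.10, and TIS11, which promotes decay of messages of iron-using proteins, at 1.92 ± 0.14. The glutaredoxin GRX3, which relays the iron signal, was lower (−0.94 ± 0.09), as was the biotin transporter VHT1 (−0.91 ± 0.09).

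Some genes of respiratory metabolism were higher. Of 25 tricarboxylic acid cycle genes, 11 were called higher and 2 lower (median 0.59), and of 44 respiratory chain and ATP synthase genes, 13 were called higher and 31 were not called, with a median of 0.24, beside 13.9% called higher over all genes. KGD1, a subunit of ketoglutarate dehydrogenase, was at 642, 817 and 784 CPM in CPTH2 and 301, 256 and 233 in scFv-58F (1.51 ± 0.13). HAP4, the activating subunit of the complex that turns on respiratory genes, was at 485, 744 and 645 against 254, 235 and 211 CPM (1.43 ± 0.16). It had calls on both sides of DMSO, at 0.82 in CPTH2 and −0.60 in scFv-58F. Relative to DMSO, 20 of the 44 respiratory chain and ATP synthase genes were called higher in CPTH2 (median 0.52), beside 14.1% of all genes. In scFv-58F 6 were called higher than DMSO and 1 lower (median 0.29), beside 1.97% and 5.43% of all genes. Compared with scFv-645, scFv-58F had 2 called higher and 0 lower (median 0.40, lowest value −0.04), beside 0.668% and 2.13% of all genes. PCK1, the first enzyme of gluconeogenesis, was at 528, 798 and 733 against 350, 164 and 125 CPM (1.69 ± 0.33), where scFv-58F replicate 1 stood above the others of its group.

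Of 30 glycolysis and fermentation genes, 6 were called higher and 6 lower (1 lower with all 5 groups in a single model). PDC1, the main pyruvate decarboxylase, was at 9499, 9482 and 9851 CPM in CPTH2 and 5052, 4856 and 5399 in scFv-58F (0.92 ± 0.11), and the enolase ENO2 at 2344, 1693 and 2730 against 3920, 4166 and 4008 CPM (−0.83 ± 0.17). Of 23 hexose transporter and glucose sensor genes, 10 were called higher and 1 lower, beside 13.9% and 13.6% of all genes. The transporter HXT5, expressed at slow growth, was at 334, 469 and 359 against 141, 99.6 and 90.0 CPM (1.82 ± 0.18), and the galactose transporter GAL2 at 5122, 7413 and 6041 against 2665, 2333 and 2230 CPM (1.37 ± 0.15).

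Cell wall genes were mixed with more higher than lower, 19 and 3 of 47 (6 lower without CPTH2 replicate 3), and a median of 0.42. Over all genes 13.9% were called higher and 13.6% lower. Relative to DMSO, 10 of the 47 were called higher and 7 lower in CPTH2 (median 0.11), beside 14.1% and 16.9% of all genes. In scFv-58F 0 were called higher than DMSO and 10 lower (median −0.26), beside 1.97% and 5.43% of all genes. Compared with scFv-645, scFv-58F had 0 called higher and 1 lower (median −0.08), beside 0.668% and 2.13% of all genes. TIP1, a cold-induced mannoprotein, was at 268, 258 and 335 CPM in CPTH2 and 48.6, 53.8 and 56.1 in scFv-58F, a log2 fold change of 2.45 ± 0.12 (adjusted p = 3.32e-06 by edgeR), and PIR3 at 309, 457 and 381 against 86.1, 77.9 and 64.3 CPM (2.33 ± 0.16). PIR1, of the same family of wall proteins and next to PIR3 on chromosome XI, was lower, at 289, 194 and 253 against 649, 724 and 567 CPM (−1.39 ± 0.16). PRM5, a membrane protein of the pheromone and cell integrity response, was higher at 1.76 ± 0.11, while STE4, the pheromone G protein beta subunit, was lower at −1.05 ± 0.08. In lipid synthesis, 9 of 31 fatty acid and phospholipid genes were called lower, among them the regulator INO4 (−1.16 ± 0.15) and the phosphatidylserine synthase CHO1 (−0.83 ± 0.13), and the desaturase OLE1 was called higher, at 198, 386 and 262 against 124, 119 and 131 CPM (1.18 ± 0.20).

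Of 39 sulfate assimilation and methionine genes, 11 were called higher (7 with all 5 groups in a single model), beside 13.9% of all genes. Called lower were 3 (5 without CPTH2 replicate 1, 1 without CPTH2 replicate 2), beside 13.6% of all genes. The cysteine transporter YCT1 was at 99.9, 131 and 97.4 CPM in CPTH2 and 34.5, 35.9 and 34.3 in scFv-58F (1.65 ± 0.11), and the sulfate permease SUL1 stood at 1.13. Of 22 vitamin B6 and thiamine genes, 9 were called higher (5 in the model of all 5 groups) and 2 lower, with the thiamine transporter THI7 at 37.7, 37.7 and 36.6 against 18.4, 14.9 and 17.3 CPM (1.16 ± 0.10). PHO3, a thiamine-repressed phosphatase, was lower at −1.04, and it was called lower than DMSO in both groups, by −2.13 in CPTH2 and −1.09 in scFv-58F. SNZ1, a vitamin B6 gene with near-identical copies, was at 162, 377 and 187 against 201, 218 and 209 CPM and was not called (0.21 ± 0.26), while both groups were called above the DMSO mean of 120 CPM.

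Of 34 autophagy genes, 9 were called higher and 4 lower (2 without CPTH2 replicate 2 or 3), with ATG39, the receptor for autophagy of the nuclear envelope, at 132, 171 and 138 CPM against 68.5, 60.6 and 54.4 (1.27 ± 0.12) and the kinase ATG1 at 0.98. Of 23 seripauperin (PAU) genes, a subtelomeric family of near-identical copies, 8 were called higher, against 4 with DESeq2, 3 in the model of all 5 groups, and 4 or 5 without CPTH2 replicate 1 or 2 or any of the scFv-58F replicates. Of 24 ribonucleotide reductase and DNA damage genes, 5 were called higher (3 without CPTH2 replicate 2 or scFv-58F replicate 3) and 7 lower, of 25 mating type a and pheromone genes 3 (5 without CPTH2 replicate 1) and 6, and of 24 amino acid permease genes 4 (2 without CPTH2 replicate 2) and 4. The share called over all genes was 27.5%, which amino acid permease genes (33.3%) were near. Calls were fewer in 37 zinc, copper and phosphate genes (8 higher and 1 lower, 24.3%), 31 ergosterol synthesis genes (1 higher and 5 lower), 34 purine and pyrimidine synthesis genes (2 and 3), 48 meiosis genes (5 and 4) and 37 translation factor genes (1 and 3). The 3 lower calls of the last list were lost without CPTH2 replicate 2, and 1 was left without CPTH2 replicate 3 or scFv-58F replicate 3.

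**Figure D4:**
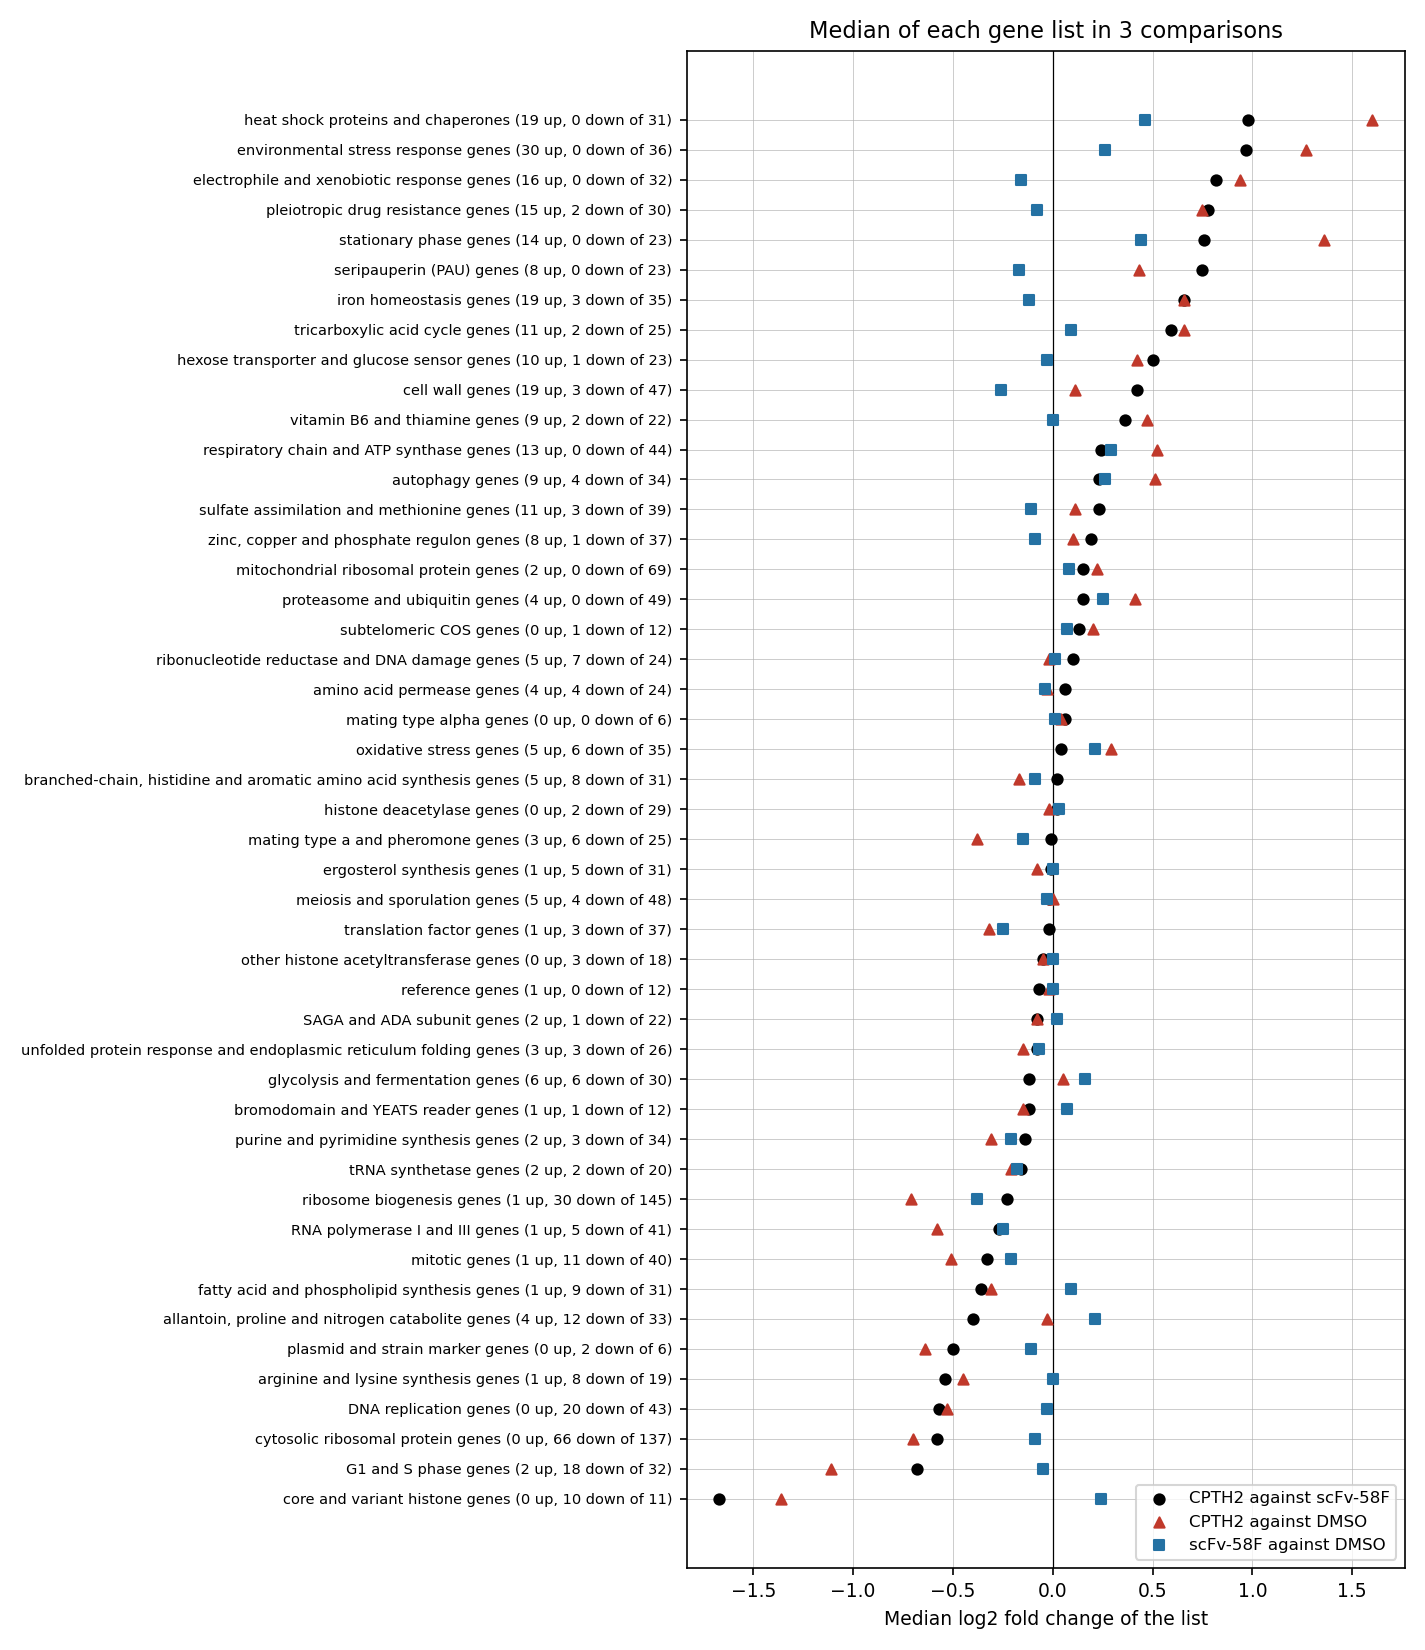
Median log2 fold change of each of 47 gene lists for CPTH2 against scFv-58F (circles), CPTH2 against DMSO (triangles) and scFv-58F against DMSO (squares), ordered by the first, with the number of members called higher and lower in CPTH2 against scFv-58F of those tested beside each name. Heat shock genes stand at the top with 0.98 and histone genes at the bottom with −1.67.

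Other groups held few calls, or calls in both directions, beside the 27.5% of all genes. Of 35 oxidative stress genes, 5 were called higher (9 without CPTH2 replicate 3) and 6 lower (median 0.04), with the glucose-6-phosphate dehydrogenase ZWF1 at 463, 726 and 561 against 229, 193 and 178 CPM (1.55 ± 0.17) and the thioredoxin TRX1 at 204, 157 and 137 against 342, 334 and 370 CPM (−1.06 ± 0.14). Of 26 unfolded protein response and endoplasmic reticulum folding genes, 3 were called each way, with the oxidase ERO1 at 99.8, 177 and 112 against 42.4, 38.6 and 40.1 CPM (1.69 ± 0.19). Of the 26, 1 was called each way without CPTH2 replicate 2, 6 were called lower without CPTH2 replicate 1, 5 lower without scFv-58F replicate 1 or 2, and 1 higher without scFv-58F replicate 3. ERO1 was called at 1.07 in CPTH2 and −0.61 in scFv-58F against DMSO. Between scFv-58F and scFv-645, 0 of the 26 genes were called, beside 2.79% of all genes. Of 69 mitochondrial ribosomal protein genes 2 were called, both higher (5 higher and 2 lower without CPTH2 replicate 1, 1 higher without CPTH2 replicate 2, 4 without CPTH2 replicate 3, 5 without scFv-58F replicate 1). Of 12 subtelomeric COS genes 1 was called, and of 12 reference genes 1, the pyruvate dehydrogenase subunit PDA1 (0.67). Actin (ACT1) was at 1541, 1728 and 1744 against 1602, 1735 and 1707 CPM. LEU2, the marker of growth in SD-L medium, was at 7581, 7736 and 8462 CPM in CPTH2 and 10646, 11224 and 10989 in scFv-58F, and its −0.46 ± 0.11 was not called.

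For some genes CPTH2 and scFv-58F lay on opposite sides of DMSO, and for others they moved the same way by different amounts. Among the 24 genes furthest apart that overlap no other gene, OSI1, PDR5, SNQ2, HSP31 and HO stood in scFv-58F at −0.18, 0.03, −0.10, −0.11 and −0.08 against DMSO, without a call, while in CPTH2 they stood at 4.88, 4.03, 2.93, 3.15 and −3.18. FRM2, CIS1, AAD6, DSE1 and MEP2 were called against DMSO in opposite directions in the 2 groups, and HSP26 was called higher in both. Against scFv-645, the intrabody that does not bind the mark, these 11 genes lay between −0.41 (HO) and 0.40 (HSP26 and CIS1) in scFv-58F. Between the 2 intrabody strains 2.79% of tested genes were called, among them HSP12 (0.82), SPG1 (0.82), PCK1 (1.13), MRT4 (−0.60) and RPC82 (−0.69), with 0.668% of all genes called higher and 2.13% lower.

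**Figure D5:**
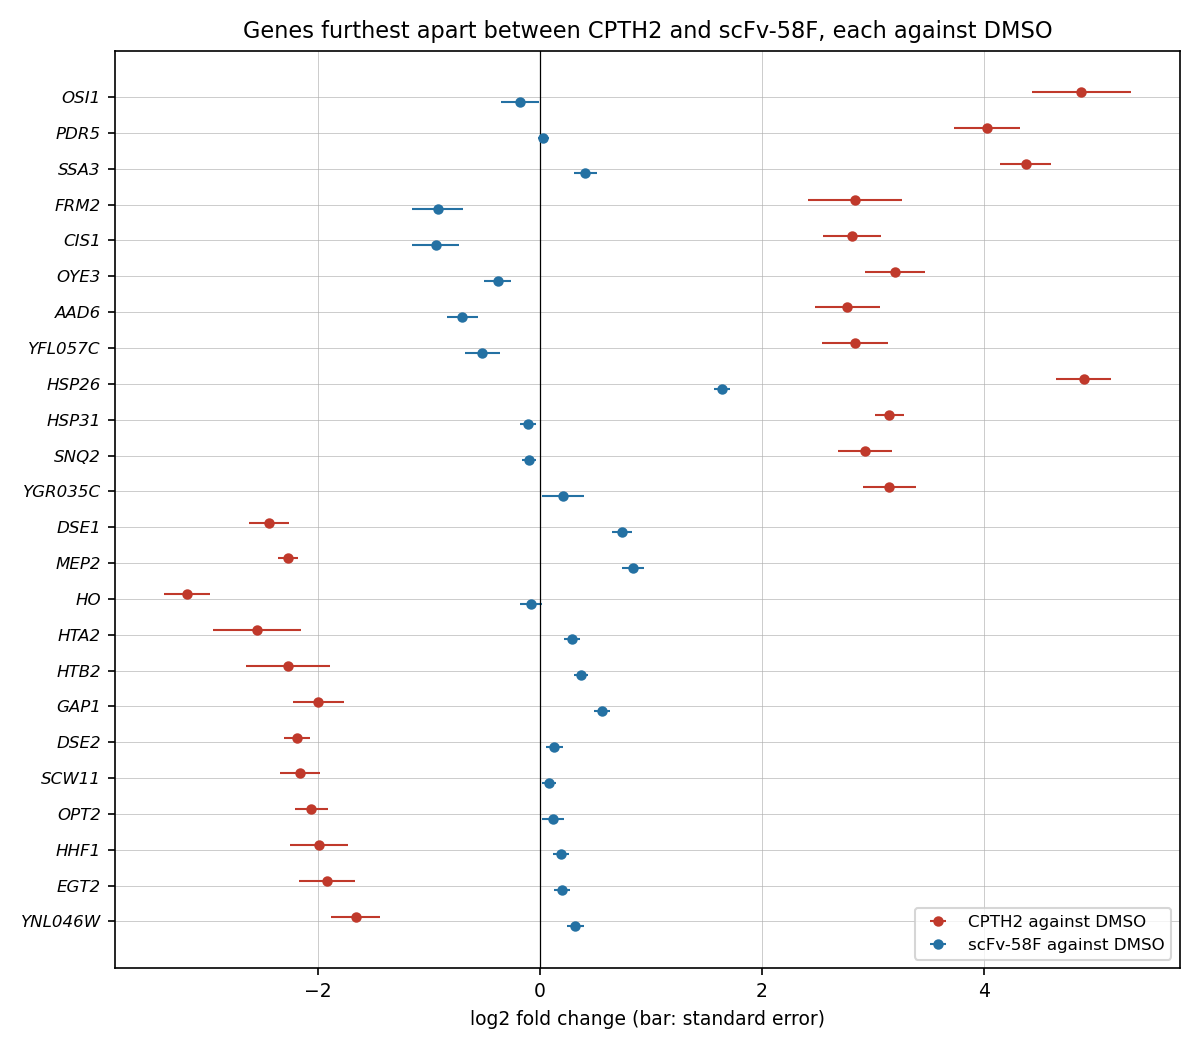
Log2 fold change against DMSO, with standard error bars, in CPTH2 (red) and scFv-58F (blue) for the 12 genes furthest higher and the 12 furthest lower in CPTH2 against scFv-58F. HSP26 lies right of 0 in both groups, at 4.90 and 1.64, and MEP2 lies at −2.27 in CPTH2 and 0.84 in scFv-58F.

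Coding length moved with the difference between the groups. The 1653 genes of 75 to 555 bases had a median log2 fold change of −0.17 with 196 called higher and 349 lower, and the 1644 genes of 1785 to 14733 bases had a median of 0.20 with 317 higher and 93 lower. The median length was 432 bases in the list of cytosolic ribosomal protein genes, 399 in histone genes, 384 in stationary phase genes and 1803 in drug resistance genes. After a correction for length in each sample, chosen after the data were seen, the medians of the 4 length classes lay between −0.02 and 0.01. With it, 10 histone, 18 heat shock, 28 environmental stress, 15 drug resistance and 19 iron homeostasis genes were called in the direction given above, oxidative stress genes called higher numbered 11 in place of 5, and mitochondrial ribosomal protein genes called higher numbered 10 in place of 2. The part of coding length in these results was not tested.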

How the data were processed

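RNA of 15 cultures in 5 groups of 3 was sequenced after a poly(A) stranded library preparation. Per the labels and the study's methods, the authors used bcl2fastq 1.8.4, FastQC for quality, cutadapt for trimming, segemehl for mapping to sacCer3 and NGSutils 0.5.9 for counting in coding regions, which ignored strand and shared reads among their mappings. The deposited files hold raw counts per gene, and also CPM and RPKM, which the authors computed from these counts; the analysis used the counts. Genes with 10 counts in 3 of 15 samples were tested with edgeR 4.0.16 (R 4.3.3, TMM), fitting the 2 groups compared and no covariate; DESeq2 1.42.0 was an alternative. The pipeline was tested on simulated data. Named genes were the 12 furthest each way among called genes at 10 CPM or more that overlap no other gene and whose samples did not overlap, the leading genes of 47 lists, and a fixed set. Members and lists were chosen with earlier results of these data known. Other alternatives were DESeq2 size factors, library size, other filters and thresholds, the replicate block, each sample left out, and, added after the data were seen, a correction for coding length. With 9062694 to 18878167 counts per sample, counting error is small for genes at high levels. It is larger for genes with few counts, such as HO in CPTH2 and FRM2 in scFv-58F. Nothing says that same-numbered samples share a culture or day, and p-values set the difference between groups against the spread between these samples.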

Additional observations from a re-analysis of the deposited data

How the results depend on the processing

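The number of genes called between CPTH2 and scFv-58F, 1814 in the fit reported, was 3940 with the adjusted p alone, 578 with a fold of at least 2 and 775 with a test against the fold itself (glmTreat in edgeR). With DESeq2's Wald test it was 1779, with its size factors 1815, with library size alone 1832, with all 5 groups in a single model 1508, and with the correction for coding length 1642, of which 1393 were also called without it. With samples left out singly it lay between 1540 and 2106. The percentage of called genes that were higher in CPTH2 was 54.3 with all 5 groups, 64.9 with a fold of at least 2, 55.5 with the length correction, 64.1 with glmTreat, 61.8 with library size alone and 49.2 to 53.7 with each sample left out, and the cause of these shifts was not tested. The mean distance between samples of the groups was 35.3 over the 500 most variable genes, which is a smaller set by construction. The deviations of same-numbered samples had r of −0.202, −0.00505 and −0.0493 across genes, and those of other pairs −0.206 to 0.239. With 3 samples in each group, these values cannot show whether same-numbered samples share a culture or day. In the fit with a replicate block 1833 genes were called, and against DMSO 2050 in CPTH2 and 491 in scFv-58F. Of 308 named genes 259 were called. Of these, 228 kept the call whichever sample was left out, 235 with the length correction and 246 with library size alone, and no called gene changed sign in the alternatives run.

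Genes near 0 and not called changed sign. With library size alone RSC1 stood at 0.04, RSC2 at 0.02, YTA7 and ACT1 at 0.07, COS12 at 0.00 and SPT15 at 0.01. With the length correction SNF2 stood at −0.09, ACT1 at 0.03, TUB2 at −0.04, TAF10 at 0.12, SPT15 at 0.11 and ADE2 at −0.08. With each sample left out in turn, the range was −0.12 to 0.06 for RSC1, −0.12 to 0.01 for RSC2, −0.07 to 0.05 for YTA7, −0.47 to 0.12 for COS12, −0.18 to 0.00 for COS9, −0.04 to 0.05 for ACT1 and TUB2, −0.03 to 0.16 for ADE2, −0.05 to 0.12 for MAK16, −0.26 to 0.44 for SNZ1 and −0.12 to 0.58 for BTN2. Of 94 list counts, 19 moved by more than 1.5 times with library size alone, 18 with all 5 groups and 21 with the length correction.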
